A study of Homo sapiens with 6 samples.

Results

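The small nucleolar RNAs (snoRNAs) SNORD22, SNORD25, SNORD26, SNORD27, SNORD28, SNORD29, SNORD30 and SNORD31 are annotated in introns of the non-coding host gene SNHG1. They were looked for by name among the 28846 small RNA entries counted in K562 cells, a human erythroleukemia cell line. Of the 8 names, 6 had a row in the count tables, and SNORD25 and SNORD26 had none. The rows of SNORD22, SNORD29, SNORD30 and SNORD31 were at 0 in all 6 libraries, SNORD27 had 1 count and SNORD28 had 42. The entry with the name of the host, SNHG1, held 634012 counts. It was the most abundant of the 418 entries with snoRNA or snoRNA host names in every library. The names of the snoRNAs thus carry almost no counts in these data, and 0 of the 8 passed the filter on low counts, so 0 were called altered, against 57.6% of the 947 entries that passed. Whether the 8 snoRNAs moved together upon RUNX1 over-expression could not be asked of their own rows. The level of the SNHG1 entry in relation to the other small RNAs is described instead.

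The control cells carried the empty lentiviral vector SIEW, which expresses GFP only, and the RUNX1 cells carried SIEW RUNX1, which expresses human RUNX1 and GFP. Each condition had 3 samples, transduced independently, and RNA was taken after 10 days in culture. Both vectors express GFP, so the vectors differ by the RUNX1 insert. Total counts ranged from 1618248 in control replicate 1 to 15245007 in RUNX1 replicate 1. Depth went with the condition, with at least 7918551 counts in RUNX1 libraries and at most 6193319 in control libraries. The RUNX1 transcript is a messenger RNA and has no entry among the small RNAs, so the labels could not be checked on it here.

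C/D box snoRNAs carry a C box near the 5′ end and a D box near the 3′ end and guide the methylation of ribose in ribosomal RNA. Most human snoRNAs lie in introns and are trimmed from the excised intron after the host transcript has been spliced. SNHG1 belongs to the hosts whose spliced RNA is not known to encode a protein, and several snoRNAs are released from the introns of each transcript. SNORD25, SNORD27 and SNORD28 guide modification of the small subunit rRNA, and SNORD26, SNORD29, SNORD30 and SNORD31 that of the large subunit rRNA. SNORD22 has no assigned target of this kind.

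SNHG1 lies on the minus strand of chromosome 11 of GRCh38, from 62851988 to 62855914. All 8 snoRNAs fall into introns of a single annotated SNHG1 transcript, which has 9 exons. From the 5′ end of the host, SNORD25 lies in intron 1, SNORD26 in intron 2, SNORD27 and SNORD28 both in intron 3, SNORD29 in intron 5, SNORD30 in intron 6, SNORD31 in intron 7 and SNORD22 in intron 8. SNORD27 spans 62855012 to 62855083 and SNORD28 spans 62854621 to 62854695. In the GENCODE annotation, release 29, 6 of the 8 snoRNAs are listed. The positions of SNORD29 (62853904 to 62853968) and SNORD31 (62853326 to 62853393) were taken from RefSeq.

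**Figure D1:**
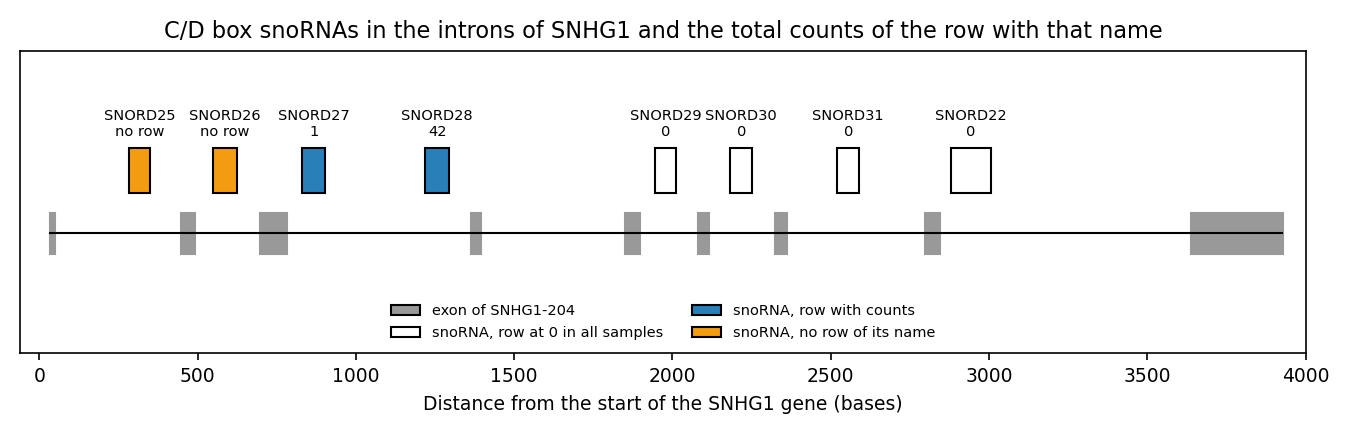
Position of the 8 snoRNAs and of the exons of that transcript along the host gene, in bases from the gene's start, with the total counts of the row of each name in the 6 libraries. SNORD28 has 42 counts and SNORD27 has 1, the rows of SNORD29, SNORD30, SNORD31 and SNORD22 are at 0, and SNORD25 and SNORD26 have no row.

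The 6 sequences in GENCODE are shown because they allow the row names to be checked for copies in annotated transcripts of other genes. They are given 5′ to 3′ as DNA letters, with the C box core GATGA in the first 20 bases and the last CTGA, the D box, in the last 20 bases in capitals:
SNORD25: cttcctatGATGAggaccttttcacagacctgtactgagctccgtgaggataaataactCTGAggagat
SNORD26: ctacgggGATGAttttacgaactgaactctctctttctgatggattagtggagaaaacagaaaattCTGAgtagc
SNORD27: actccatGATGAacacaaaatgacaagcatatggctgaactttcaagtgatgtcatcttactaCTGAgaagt
SNORD28: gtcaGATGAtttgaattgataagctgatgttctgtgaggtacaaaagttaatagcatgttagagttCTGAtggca
SNORD30: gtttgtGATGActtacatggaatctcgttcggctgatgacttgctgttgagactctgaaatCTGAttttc
SNORD22: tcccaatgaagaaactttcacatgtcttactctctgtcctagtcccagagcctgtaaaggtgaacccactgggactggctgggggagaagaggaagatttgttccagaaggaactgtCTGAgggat

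The D box letters were present in 6 of these 6 sequences and the C box letters in 5, all but SNORD22. Among the 288 GENCODE snoRNAs with SNORD names, 70.1% had both motifs in these windows on the transcribed strand, and 0 of the 149 with SNORA names had both. The sequences are 69 to 75 bases long, except SNORD22 with 126. Of the words of 18 bases, 0 of 52 in SNORD25 and 0 of 53 in SNORD30 occurred in a transcript of another gene, on either strand. The numbers were 1 of 58 for SNORD26, 2 of 55 for SNORD27 and 1 of 109 for SNORD22. SNORD28 was the exception, with 15 of 58 words shared. Copies outside annotated transcripts were not searched for.

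The words of SNORD28 recur in 2 other annotated genes, SNORD28B and SNORA108, neither of which has a row of its own. SNORD28B spans 156378750 to 156378824 of chromosome 6 (GRCh38) and has 84% identity with SNORD28 over an alignment of 75 columns. SNORA108 spans 58600631 to 58600698 of chromosome 18 (GRCh38), with 70.7% identity, and shares 6 of the words. Its sequence is shown because the SNORD28 row is the only one with more than 1 count, and the capitals mark the stretch of 23 bases that is identical in SNORD28:
SNORA108: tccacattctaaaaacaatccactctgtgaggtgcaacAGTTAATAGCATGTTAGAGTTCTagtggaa
The annotation that accompanies the study places the entry named SNORD28 on the chromosome of this copy and gives it the length of this copy, outside the SNHG1 locus. The counts of the SNORD28 row can therefore not be assigned to the snoRNA in SNHG1.

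The SNORD28 row had 1, 4 and 3 counts in control replicates 1, 2 and 3. In RUNX1 replicates 1, 2 and 3 it had 7, 9 and 18. After TMM normalization, which sets the scale of each library from the bulk of its entries, this was 0.457 ± 0.054 counts per 1000000 (CPM) in control and 1.56 ± 1.02 CPM in RUNX1 cells (SD, n = 3 each). On this scale the samples of the conditions did not overlap, with at most 0.496 CPM in control and at least 0.607 CPM in RUNX1 cells. RUNX1 replicate 3 lay highest. A lack of overlap was not particular to this row, since GAS5 and SNHG5, for example, had none, whereas SNHG1 had. The share of all entries without overlap was not computed, so the separation of this row is not read as a result. As a share of the library the conditions overlapped for the SNORD28 row. RUNX1 replicate 1, at 4.59e-05%, lay below the controls, which ranged from 4.84e-05% to 6.5e-05%. The row did not pass the count filter. An unfiltered edgeR fit (quasi-likelihood) put its log2 FC, the log2 fold change of RUNX1 over control, at 1.71 (SE 0.63, Benjamini-Hochberg adjusted p = 0.0364). Over the other ways of fitting it the adjusted p ranged from 0.00103 to 0.329, with 0.115 in DESeq2. Entries were called altered where P was below 0.05 and the log2 FC reached 0.5 in either direction. Of the 3084 entries in that fit 24.7% were called, 12.4% as up-regulated. From the summed counts, 8 in control and 34 in RUNX1 cells, the ratio of the normalized rates was 3.06, with an exact 95% interval of 1.39 to 7.66 that covers counting error only. The row was no longer called with library size alone, where the log2 FC was 1.01, or without RUNX1 replicate 3, where it was 1.34.

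The single count of SNORD27 came from RUNX1 replicate 2. SNORD28 accounted for 100% of the counts on the 6 rows in the other 5 libraries and for 90% in that library. This share differed by -3.33 percentage points between the conditions (two-sided exact permutation test, p = 1, where 3 samples against 3 cannot go below 0.1). Only RUNX1 replicate 2 was not at 100%, so every split of the samples gives a difference of this size. The test could therefore show nothing about the conditions. A row at 0 allows a share of the library of up to 0.000185% in control replicate 1, the shallowest library, and of up to 1.97e-05% in RUNX1 replicate 1, the deepest. These limits assume 3 counts and cover counting error only. They apply to the rows of SNORD22, SNORD29, SNORD30 and SNORD31, which were at 0 in the 6 libraries. Reads counted under another name are not covered. All rows with a member's name together made up from 4.59e-05% of a library, in RUNX1 replicate 1, to 0.000227%, in RUNX1 replicate 3.

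The counts of the SNHG1 entry were 32165, 129000 and 118676 in the control samples and 156926, 99771 and 97474 in the RUNX1 samples, each in the order of replicates 1, 2 and 3. As a share of the library this was 1.99%, 2.1% and 1.92% in control and 1.03%, 1.17% and 1.23% in RUNX1 cells. The share was lower in all 3 RUNX1 samples than in any control, with means of 2% ± 0.0908 and 1.14% ± 0.104 (SD, n = 3 each). Its place among all entries by count was 12 in each control library and between 14 and 17 in the RUNX1 libraries. After TMM normalization the values were 15382, 16009 and 15628 CPM in control and 13613, 15962 and 14227 CPM in RUNX1 cells, and the conditions overlapped. In RNA from a whole culture, a change per cell and a change in the share of cells that carry an RNA cannot be told apart. RUNX1 replicate 2 lay within the range of the controls, and RUNX1 replicates 1 and 3 lay below it. The log2 FC was -0.10 (SE 0.11, 95% interval from -0.36 to 0.15), and the entry was not altered (edgeR, Benjamini-Hochberg adjusted p = 0.46). In the same fit 57.6% of the 947 tested entries were altered, 28% up-regulated and 29.6% down-regulated. Among the 116 tested entries with SNORD names the share was 56.9%.

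**Figure D2:**
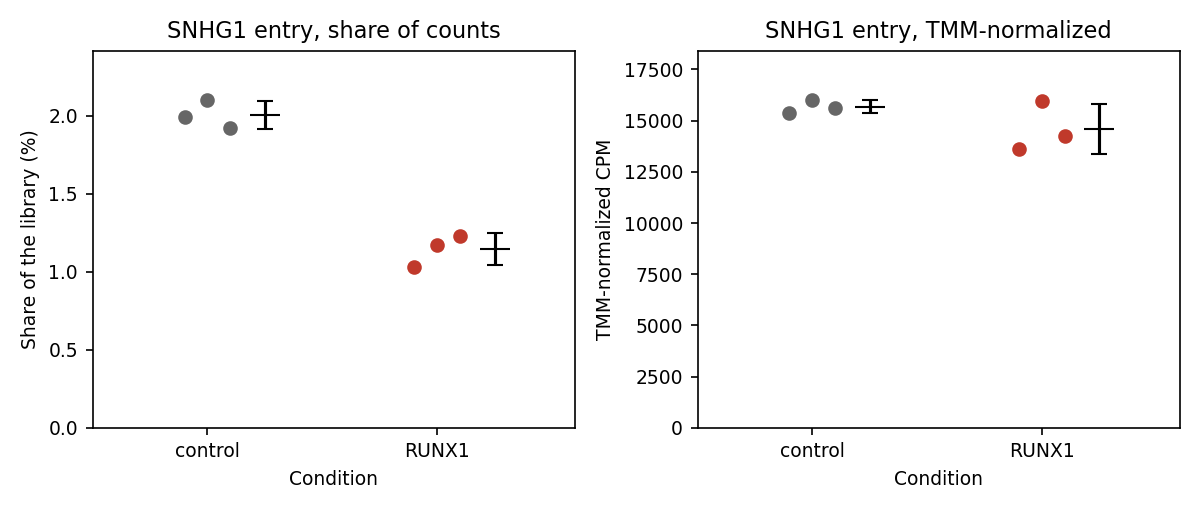
SNHG1 entry in each sample as a share of all counts of the library in percent (left) and in TMM-normalized CPM (right), with the mean and SD of each condition beside the points (n = 3 each). The share is lower in all RUNX1 samples, at most 1.23% against at least 1.92% in control, whereas the normalized values overlap.

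The size of this difference depended on the scaling. Scaled to library size alone, the SNHG1 entry had a log2 FC of -0.81 (SE 0.11, edgeR, Benjamini-Hochberg adjusted p = 0.000325) and was called down-regulated. With TMM factors computed on microRNAs its log2 FC was -0.31 (SE 0.11, edgeR, Benjamini-Hochberg adjusted p = 0.0301), inside the fold change threshold. The median over all 947 tested entries moved as well, from -0.06 with TMM to -0.76 with library size alone. Relative to this median, the SNHG1 entry stood at -0.04 with TMM and at -0.04 with library size alone. The value was -0.04 as well with TMM factors computed on microRNAs or on the other C/D box snoRNAs, and -0.03 with RLE size factors or in DESeq2. A change of scaling shifts the log2 FCs of all entries nearly alike. These values thus stay close by construction and cannot tell which scaling holds. Entries with snoRNA or snoRNA host names took from 11.1% to 11.7% of the counts in control libraries and from 6.13% to 7.21% in RUNX1 libraries. Within these counts the SNHG1 entry took 17.5% ± 0.425 in control and 17.6% ± 1.14 in RUNX1 cells (SD, n = 3 each, two-sided exact permutation test, p = 1).

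**Figure D3:**
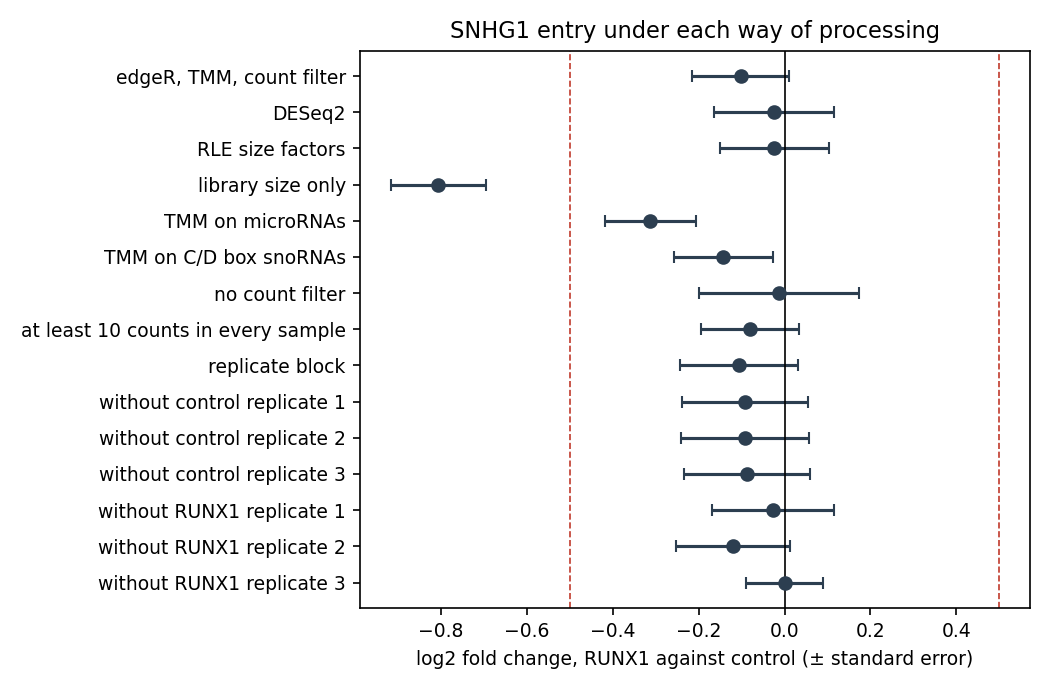
Log2 FC of the SNHG1 entry between RUNX1 and control samples, with its standard error, under each way of processing, and dashed lines at the threshold of 0.5 in both directions. The value lies between -0.31 and 0.000186 in all settings except library size only, where it is -0.81.

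By the distance between log2 CPM values centred over the 6 samples, the C/D box snoRNAs nearest to the SNHG1 entry among 116 tested were SNORD43, SNORD10 and SNORD8. Their root mean square distances were 0.0866, 0.0899 and 0.106 on the log2 scale, and their log2 FCs -0.16, -0.11 and -0.21. None of these 3 is among the snoRNAs of SNHG1, and this comparison was decided on after the members' values had been seen.

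The tables hold 13 entries with SNHG names and one named GAS5, another non-coding host of C/D box snoRNAs. Of the 12 SNHG entries tested, 5 (41.7%) were down-regulated and 0 up-regulated. Of all 947 tested entries 57.6% were altered, 29.6% as down-regulated and 28% as up-regulated. The median log2 FC of the SNHG entries was 0.01 against -0.06 over all tested entries. SNHG1 was among the 7 that were not altered. SNHG15 fell most, by 2.47 on the log2 scale (SE 0.52), followed by SNHG3, by 1.41 (SE 0.13), and SNHG12, by 1.03 (SE 0.12). SNHG9 and SNHG6 had log2 FCs of -0.75 and -0.62. The SNHG15 and SNHG9 entries held only 220 and 176 counts in total, against 8897 for SNHG3, 7723 for SNHG12 and 3135 for SNHG6. The second most abundant host entry after SNHG1 was GAS5, with 200307 counts. GAS5 had a log2 FC of -0.32 (SE 0.11, edgeR, Benjamini-Hochberg adjusted p = 0.0333), inside the fold change threshold. It was called down-regulated with library size alone and with TMM on microRNAs. Its adjusted p was 0.0212 with TMM on the other C/D box snoRNAs (edgeR). It was higher in other alternatives, with 0.136 in DESeq2, and in edgeR 0.132 with RLE size factors and 0.56 without a count filter. With 1 replicate left out, the edgeR adjusted p ranged from 0.061 to 0.153. SNHG5, with 148988 counts, had a log2 FC of 0.22 (SE 0.11).

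**Figure D4:**
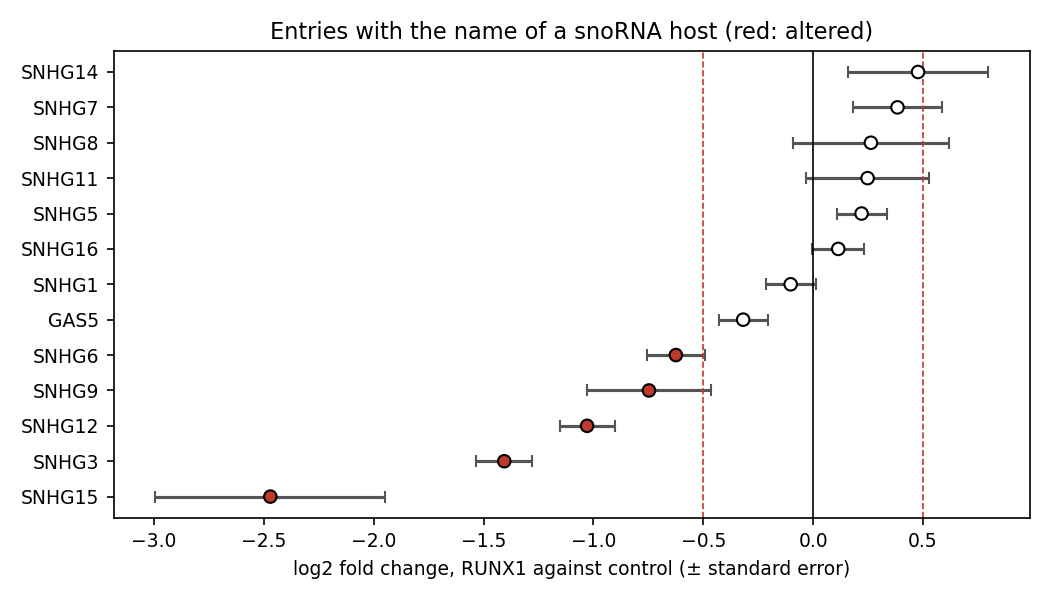
Log2 FCs with standard errors of the 13 tested entries that carry the name of a snoRNA host, with dashed lines at 0.5 in both directions. SNHG1, at -0.10, lies between GAS5 and SNHG16, and the 5 altered entries, all down-regulated, are SNHG15, SNHG3, SNHG12, SNHG9 and SNHG6.

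The ratio of SNHG1 to another host within a library needs no normalization between libraries. The log2 ratio of SNHG1 to GAS5 counts was 1.47, 1.59 and 1.58 in control and 1.65, 1.82 and 1.81 in RUNX1 cells. It was higher in all RUNX1 samples, with a difference of 0.21 on the log2 scale (two-sided exact permutation test, p = 0.1, as low as this design can go). The log2 ratio of SNHG1 to SNHG5 counts was 2.25, 2.38 and 2.27 in control and 1.77, 2.2 and 1.96 in RUNX1 cells, a difference of -0.32 in the other direction (same exact test, p = 0.1). These 2 ratios were tested, and both adjusted p-values were 0.1. They were chosen after the data had been seen.

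The split between the host name and the names of its snoRNAs differed from host to host. Rows were matched to hosts by name, and whether the rows named for snoRNAs of the other hosts count those loci was not tested. For SNHG1, 634012 counts on the host name stood against 43 on the rows with the names of its snoRNAs, 42 of them on the SNORD28 row that cannot be assigned to this locus. For GAS5, 7 of the 10 listed snoRNAs had a row, with 145506 of their 145566 counts on SNORD78. SNORD78 had a log2 FC of -0.62 and was the 1 of the 10 that passed the filter. For SNHG5, 148988 counts lay on the host name and its snoRNAs, SNORD50A and SNORD50B, had no row. SNHG12 went the other way, with 7723 counts on the host name and 34317 on SNORD99. So did SNHG14, with 169 on the host name against 197 on the rows of its snoRNAs. For SNHG16 it was 10884 against 13085, and for SNHG17 4 against 10173. In the annotation that accompanies the study, the entries SNHG3, SNHG6, SNHG12 and SNHG15 are intervals of the length of a single snoRNA, not whole host genes. The interval of the SNHG1 entry is not given in the sources used here. Which of its snoRNAs, if any, the SNHG1 entry counts was not tested.

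**Figure D5:**
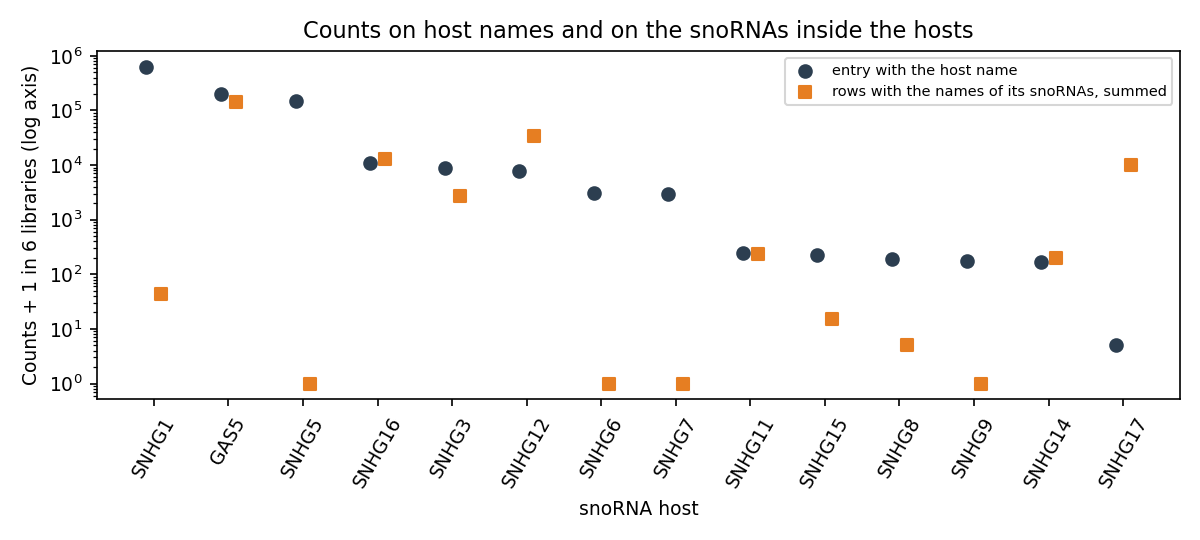
Total counts in the 6 libraries, plus 1, on a log axis for each entry with a host name (circles) and for the rows with the names of the snoRNAs inside that host, summed (squares). SNHG1 has the most counts of all host names, 634012, and 43 on the rows with the names of its snoRNAs, 42 of them on the SNORD28 row. SNHG12 has 34317 on those rows and 7723 on the host name. SNHG14, SNHG16 and SNHG17 also have more counts on those rows than on the host name.

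The ribosomal protein gene RPL13A hosts 4 C/D box snoRNAs and has no entry of its own name here, and all 4 of its snoRNAs had rows that were tested. It shows what the comparison planned for SNHG1 looks like where the rows hold counts. These rows were matched to RPL13A by name alone, and whether they count this locus was not tested. SNORD33 fell by 2.98 on the log2 scale (SE 0.30), from 5700 ± 115 CPM in control to 725 ± 354 CPM in RUNX1 cells (SD, n = 3 each). SNORD32A, SNORD34 and SNORD35A were not altered, with log2 FCs of -0.20, 0.24 and -0.12. The log2 ratio of SNORD33 to SNORD32A counts was 2.92 ± 0.0141 in control and 0.0535 ± 0.48 in RUNX1 cells (SD, n = 3 each). The two-sided exact permutation test of this ratio gave p = 0.1, which is the minimum for groups of this size. The pair was chosen after the values were seen, so this p supports nothing. No such comparison within SNHG1 can be drawn from these counts.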

How the data were processed

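Small RNA libraries were made with the TruSeq Small RNA kit from 1000 ng of total RNA and sequenced as single reads. The authors deposited whole-number counts per small RNA without normalization. The submitters' processing notes name CASAVA 1.8.2 and the build hg19, and the study's methods name the OASIS platform for differential expression. The annotation that accompanies the study gives intervals for some entries, SNORD28 among them, and not for SNHG1. The aligner and how reads with several matches were counted are not given in the sources used here, so reads of near-identical copies are uncertain. The 5 rows that name no RNA were at 0. Libraries of short reads count fragments, which need not follow the full-length snoRNA. The names of the control and RUNX1 libraries carry the letters S and R, which go with the condition, and the labels name no preparation. If the conditions were prepared separately, this cannot be told apart from the conditions.

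Low entries were removed by filterByExpr (at least 10 counts, 15 in total), TMM factors were applied, and the quasi-likelihood functions of edgeR gave the tests (R 4.3.3, edgeR 4.0.16, limma 3.58.1, DESeq2 1.42.0). Altered means P below 0.05 with a log2 FC reaching 0.5 either way. SE values were derived as log2 FC over the root of F. The distance between profiles used log2 of CPM plus 0.5. It was set for the members and was applied to the SNHG1 entry since no member passed the filter. The fits were tested on simulated data. No replicate pair was a repeat of one library. The chi-square over degrees of freedom was 9.62 to 21.9 for control pairs and 56.3 to 451 for RUNX1 pairs. The pairs with RUNX1 replicate 3 had the largest values, 314 and 451. Named were the 8 members, SNHG1, the other SNHG entries, GAS5 with the snoRNAs of GAS5 and RPL13A, and the 3 nearest profiles. The members and lists were chosen with earlier results of these data known. Sequences and positions are from GENCODE 29 on GRCh38 and from RefSeq, matched by symbol. No coordinates were converted between builds. Alternatives were DESeq2, other scalings, other count filters and thresholds, the replicate number as a block and each replicate left out.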

Additional observations from a re-analysis of the deposited data

How the results depend on the processing

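In no alternative with a count filter did an SNHG1 snoRNA row reach the test, so 0 of 8 were altered by edgeR and by DESeq2, also at an unadjusted P under 0.05. Without the filter the number was 1, the row named SNORD28, whose counts cannot be assigned to the SNHG1 locus. The SNHG1 entry was not altered in any alternative except library size alone (-0.81). With TMM on microRNAs its log2 fold change of -0.31 had an adjusted p of 0.0301 (edgeR) but lay inside the fold change threshold. Leaving out 1 replicate at a time gave log2 fold changes from -0.12 to 0.000186, the latter without RUNX1 replicate 3. The fits of SNORD28, all without a filter, and of the host ratios were added after seeing the data. The log2 fold change of SNORD28 was 1.01 with library size alone, no longer called, and from 1.34 to 2.34 with each replicate left out. Its adjusted p ranged from 0.00103 to 0.329 over these fits. The number of altered entries, 545 with 48.6% of them up-regulated, was 641 with 18.7% up-regulated under library size alone and 558 with 37.1% under TMM on microRNAs. It ranged from 521 to 612 with each replicate left out. The labels do not say that the replicate numbers pair the samples, and the mean correlation of deviations was -0.0293 for equal and 0.0136 for different numbers. With the replicate block, 546 entries were altered, SNHG1 had -0.11, SNORD28 had 1.9 and no call of these entries changed. The control libraries hold 1 to 4 counts of SNORD28, which limits the precision of its fold change.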
